A study of Homo sapiens with 35 samples.

Results

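DNA replication genes were followed as a set of 39 transcripts across 35 total RNA libraries. The cells were HEK293T, a transformed cell line of human embryonic kidney origin. The 39 genes were chosen by name and not by a cutoff on measured values, but with earlier results of these data known. They were taken as the genes of origin licensing, helicase activation, DNA synthesis, clamp loading, deoxynucleotide supply and replication-coupled chromatin assembly. They were found by gene symbol among the 60665 genes of the count table, all 39 were present, and all 39 passed the filter on low counts that left 19275 genes tested.

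Cells received a mixture of many small interfering RNAs with 1 target (a siPOOL) at 5 nM, or a control siPOOL, and RNA was taken at the end of a 72 h depletion. A first set held control siPOOL (n = 3) and depletions of ZNF687, ZNF609, ZNF608, ZEB1 and TSPYL2 (n = 2 each). A second set held control siPOOL (n = 4) and siPOOLs against INTS13, a subunit of the Integrator complex that cleaves nascent RNA, HDGF and ZNF655 (n = 2 each), and also control (n = 4), INTS13 (n = 2) and HDGF siPOOL (n = 2) in medium without glucose for the last 24 h. The last set held a siPOOL against ZMYND8 and a control siPOOL labelled for it (n = 2 each). All other libraries came from cells with glucose. No label named the control of ZNF655, and the second-set controls were used for it. The study asked how Integrator and the transcription factors it binds relate in function, and how INTS13 and HDGF bear on glucose starvation. Several features limit these groups as models: all cells were 1 transformed line, which carries viral oncoproteins known to bind the retinoblastoma family, the siPOOLs left part of each target, and the labels do not say that replicates came from different cultures, so that the p-values cover the spread among these libraries, which may be technical.

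Libraries held 16.8 to 50.8 M counts (median 25.6 M), and every member had between 346 and 36507 counts in every library. Levels are given as CPM, counts relative to library size after TMM scaling, and differences as log2 fold changes. The targeted transcripts stood at 8.36% (HDGF) to 56.1% (ZNF608) of their controls and INTS13 at 13.9%, and no depleted library overlapped its controls. HEK293T genes such as VIM and NEFL were present in all libraries, PAX2 and LHX1 were low (median 0.872 and 1.80 CPM), and CD3E was at 0 in all 35. Of the markers of blood, liver, muscle and fibroblasts, COL1A1 (median 4.39 CPM) was present in all libraries and most others were at or near 0. The 6 libraries numbered 1 in the first set stood apart: ribosomal protein genes held 10.5% to 16.8% of their counts, against 7.51% to 10.2% in the 7 numbered 2 and 5.57% to 8.51% in the other 22 libraries. Several members moved with that split. GMNN ranged from 130.5 to 258 CPM in the libraries numbered 1 and from 106 to 153 CPM in those numbered 2, and POLE from 81.1 to 144 and from 139 to 195 CPM. The part of this split in the first-set results was not tested, and these results are given with the replicate number as a block and without the libraries numbered 1.

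Eukaryotic replication starts when the origin recognition complex, CDC6 and CDT1 load the ring of MCM2 to MCM7 onto DNA, a step that geminin (GMNN) blocks outside G1. In S phase, CDC45 and the GINS complex turn the loaded ring into the active helicase, polymerase alpha and primase lay down primers, polymerases epsilon and delta extend them, and replication factor C (RFC) loads the sliding clamp PCNA. Many of these genes are transcribed together at the G1/S border by E2F factors, which pocket proteins of the retinoblastoma family hold back until cyclin-dependent kinases release them.

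The promoter windows of RefSeq (GRCh38.p14) reached from 250 bases before to 50 bases after each annotated start, and 36 of the 39 members had at least 1 window. They were searched on both strands for 4 E2F-type words (TTTCCCGC, TTTCGCGC, TTTGCCGC and TTTGGCGC), whose matches can overlap one another. A match stood in 21 of 36 members (58.3%) and in 1090 of 27305 genes with a window (3.99%). The word CCAAT was held by 61.1% of members and 39.7% of all genes, and the GC box word GGGCGG by 77.8% and 48.3%. TTTGAA, the core of the element found in many mitotic promoters, went the other way, with 2.78% of members and 18.2% of all genes, and TATAAA was held by 5.56% and 14%. A match describes the letters in these windows, not a bound site. By gene, the member windows were 53% (RFC3) to 78.3% (GINS2) G and C. The shares of these words were not adjusted for base composition. E2F-type matches were most frequent in the licensing genes (7 of 9 with a window) and stood in 4 of 6 helicase and fork factors, 4 of 6 polymerase genes, 2 of 5 clamp and clamp loader genes, 1 of 3 genes each of deoxynucleotide supply and chromatin assembly, 1 of the 2 Okazaki fragment genes and 1 of the 2 regulators.

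**Figure D1:**
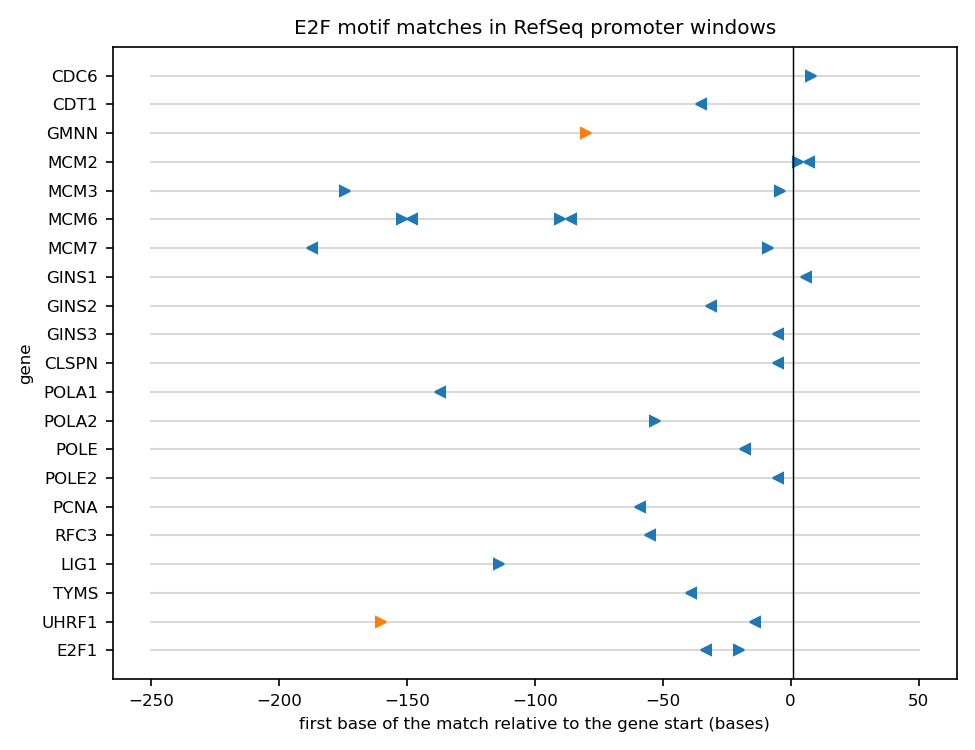
Positions of E2F-type matches in the RefSeq promoter windows of the 21 members that had one, with the first base of each match in bases relative to the annotated start (vertical line) on the x axis and genes on the y axis. Triangles pointing right are on the gene's strand and those pointing left on the opposite strand, blue marks the first window of a gene and orange a second window; the 29 matches run from -187 to 8, with a median of -35.

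Of the members shown by sequence here, all passed the test in INTS13 depletion (below). The windows of E2F1, CDC6 and MCM3 hold E2F-type matches, in capitals, and those of RFC5, SLBP and RRM1 hold none. They lie on GRCh38.p14 at chr20:33686336-33686635 (minus strand) for E2F1, chr17:40287629-40287928 (plus) for CDC6, chr6:52284693-52284992 (minus) for MCM3, chr12:118016453-118016752 (plus) for RFC5, chr4:1712270-1712569 (minus) for SLBP and chr11:4094435-4094734 (plus) for RRM1, and each is printed 5′ to 3′ on the gene's strand.
E2F1: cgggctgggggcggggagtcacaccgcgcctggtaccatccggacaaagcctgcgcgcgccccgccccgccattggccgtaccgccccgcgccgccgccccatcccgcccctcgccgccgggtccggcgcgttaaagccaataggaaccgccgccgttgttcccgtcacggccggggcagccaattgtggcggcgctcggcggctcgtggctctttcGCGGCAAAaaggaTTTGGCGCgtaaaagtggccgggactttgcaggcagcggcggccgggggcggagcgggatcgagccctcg
CDC6: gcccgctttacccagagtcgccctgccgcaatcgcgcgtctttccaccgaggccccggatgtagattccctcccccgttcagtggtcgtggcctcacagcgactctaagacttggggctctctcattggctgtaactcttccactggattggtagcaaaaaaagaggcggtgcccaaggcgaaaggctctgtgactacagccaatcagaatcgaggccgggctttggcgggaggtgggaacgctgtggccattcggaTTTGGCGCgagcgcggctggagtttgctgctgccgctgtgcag
MCM3: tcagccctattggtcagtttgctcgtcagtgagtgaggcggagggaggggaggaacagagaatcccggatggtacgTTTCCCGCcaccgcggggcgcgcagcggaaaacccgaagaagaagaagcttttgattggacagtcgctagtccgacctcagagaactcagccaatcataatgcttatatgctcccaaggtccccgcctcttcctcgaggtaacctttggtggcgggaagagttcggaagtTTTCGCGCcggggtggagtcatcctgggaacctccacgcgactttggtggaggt
RFC5: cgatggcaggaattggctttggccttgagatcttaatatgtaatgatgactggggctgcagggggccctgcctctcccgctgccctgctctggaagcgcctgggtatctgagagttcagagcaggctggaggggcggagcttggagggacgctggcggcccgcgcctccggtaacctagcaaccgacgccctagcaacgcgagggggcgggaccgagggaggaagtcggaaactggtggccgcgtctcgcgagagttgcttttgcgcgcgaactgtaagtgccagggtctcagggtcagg
SLBP: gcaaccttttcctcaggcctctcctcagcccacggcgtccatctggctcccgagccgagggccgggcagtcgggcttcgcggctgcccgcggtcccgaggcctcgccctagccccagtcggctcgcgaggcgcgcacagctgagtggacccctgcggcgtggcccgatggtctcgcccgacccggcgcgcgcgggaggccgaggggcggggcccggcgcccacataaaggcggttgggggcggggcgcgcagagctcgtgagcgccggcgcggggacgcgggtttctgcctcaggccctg
RRM1: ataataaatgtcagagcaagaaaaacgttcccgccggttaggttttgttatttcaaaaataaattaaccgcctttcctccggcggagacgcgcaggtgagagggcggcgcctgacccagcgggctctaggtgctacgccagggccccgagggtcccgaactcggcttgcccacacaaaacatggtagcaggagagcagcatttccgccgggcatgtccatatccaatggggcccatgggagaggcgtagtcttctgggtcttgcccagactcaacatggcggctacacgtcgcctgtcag

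In the second-set controls with glucose the members spanned a wide range of levels per kilobase of exon. PCNA, the clamp that tethers polymerases to DNA, was highest at 277 ± 11.8 CPM per kb (SD, n = 4), followed by the helicase subunits MCM7 at 191 ± 6.82 and MCM3 at 128 ± 3.98 CPM per kb. RRM1, the large subunit of ribonucleotide reductase, stood at 95.0 ± 2.83 CPM per kb. The lowest were POLE2, a polymerase epsilon subunit, at 9.96 ± 1.13 and POLA2, the polymerase alpha B subunit, at 4.03 ± 0.254 CPM per kb. MCM4 and MCM2, next in order after MCM3 at 103 ± 1.97 and 101 ± 5.26 CPM per kb, did not differ beyond their spread.

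Differences between groups were small. Of 546 member values over the 14 comparisons of 2 groups, 543 were below 0.5 in size on the log2 scale. The 3 beyond it were E2F1 in HDGF depletion (-0.54), RFC5 in ZNF655 depletion (-0.52) and RRM2 in ZMYND8 depletion (0.55), and the last did not pass the test.

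**Figure D2:**
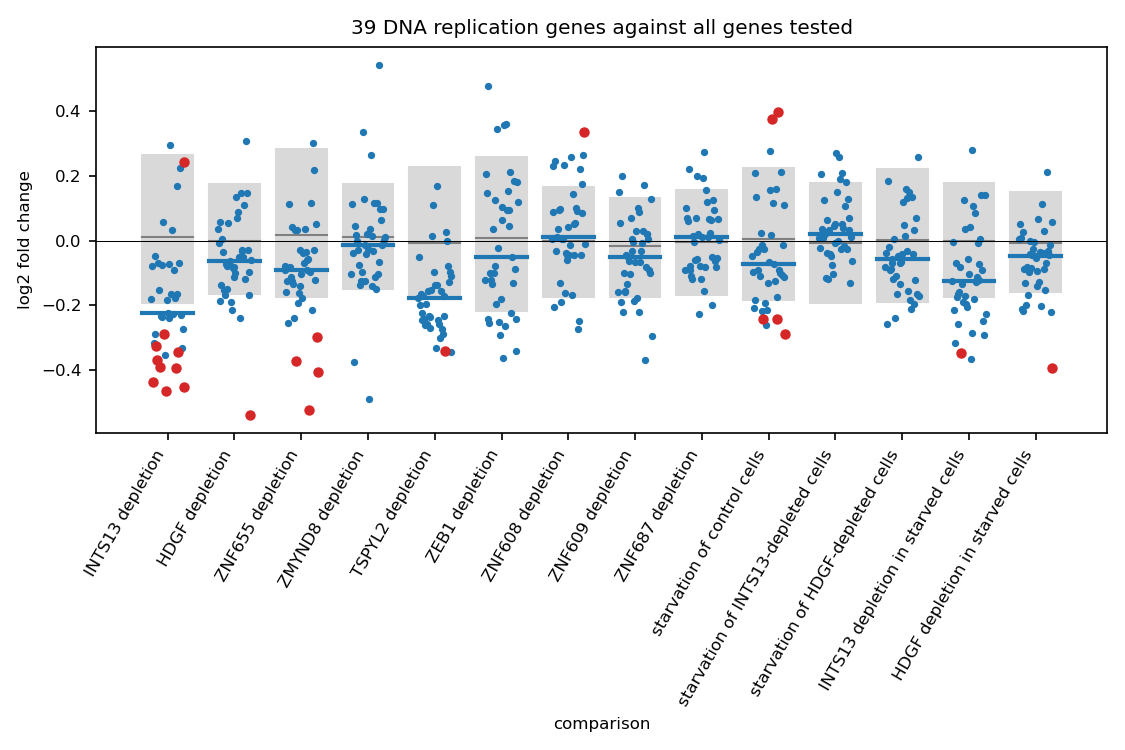
Log2 fold change of each of the 39 DNA replication genes (points, y axis) in the 14 comparisons of 2 groups (x axis); red points passed the test at an adjusted p under 0.05, blue lines are the members' medians, grey boxes are the interquartile range of all 19275 genes tested and grey lines their medians. The members' median is lowest in INTS13 depletion, at -0.22, against 0.01 for all genes.

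INTS13 depletion with glucose was the comparison in which most members passed. Compared with the 4 controls, 9 of 39 replication genes fell and 1 rose (edgeR quasi-likelihood test, Benjamini-Hochberg adjusted p under 0.05), where 6.23% of all genes tested fell and 6.53% rose (12.8% in all). The genes that fell were CDC6, MCM3, MCM4, MCM7, GINS3, CLSPN, RFC5, RRM1 and SLBP, and E2F1 rose. Values were negative for 33 of 39 members, with a median of -0.22 against 0.01 over all genes tested, and the sum of all members was 6644 ± 26.6 CPM (SD, n = 2) against 7713 ± 96.6 CPM in the controls (SD, n = 4). In 28 members both INTS13 libraries lay below all 4 controls, and in 4 above them, a total that 45.3% of all genes reached in either direction and 22.6% in the lower one. In bulk RNA, fewer cells in S phase and less replication transcript per cell cannot be told apart.

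The number of calls differed between fits, and the cause was not tested. In a fit of the second set alone, 24 members fell and 3 rose (POLE2, LIG1 and E2F1), against 16.3% and 13.8% of all genes. Without INTS13 replicate 3, 3 members were called (MCM7, RFC5 and SLBP), and without INTS13 replicate 4 also 3 (CDC6, MCM7 and RFC5), the remaining library being taken to vary like the other groups. With no filter on low counts MCM3, GINS3, RRM1 and E2F1 were not called (adjusted p 0.0607 to 0.356), and with the a and b libraries of each control summed MCM4, GINS3, CLSPN and E2F1 were not (0.0516 to 0.195).

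**Figure D3:**
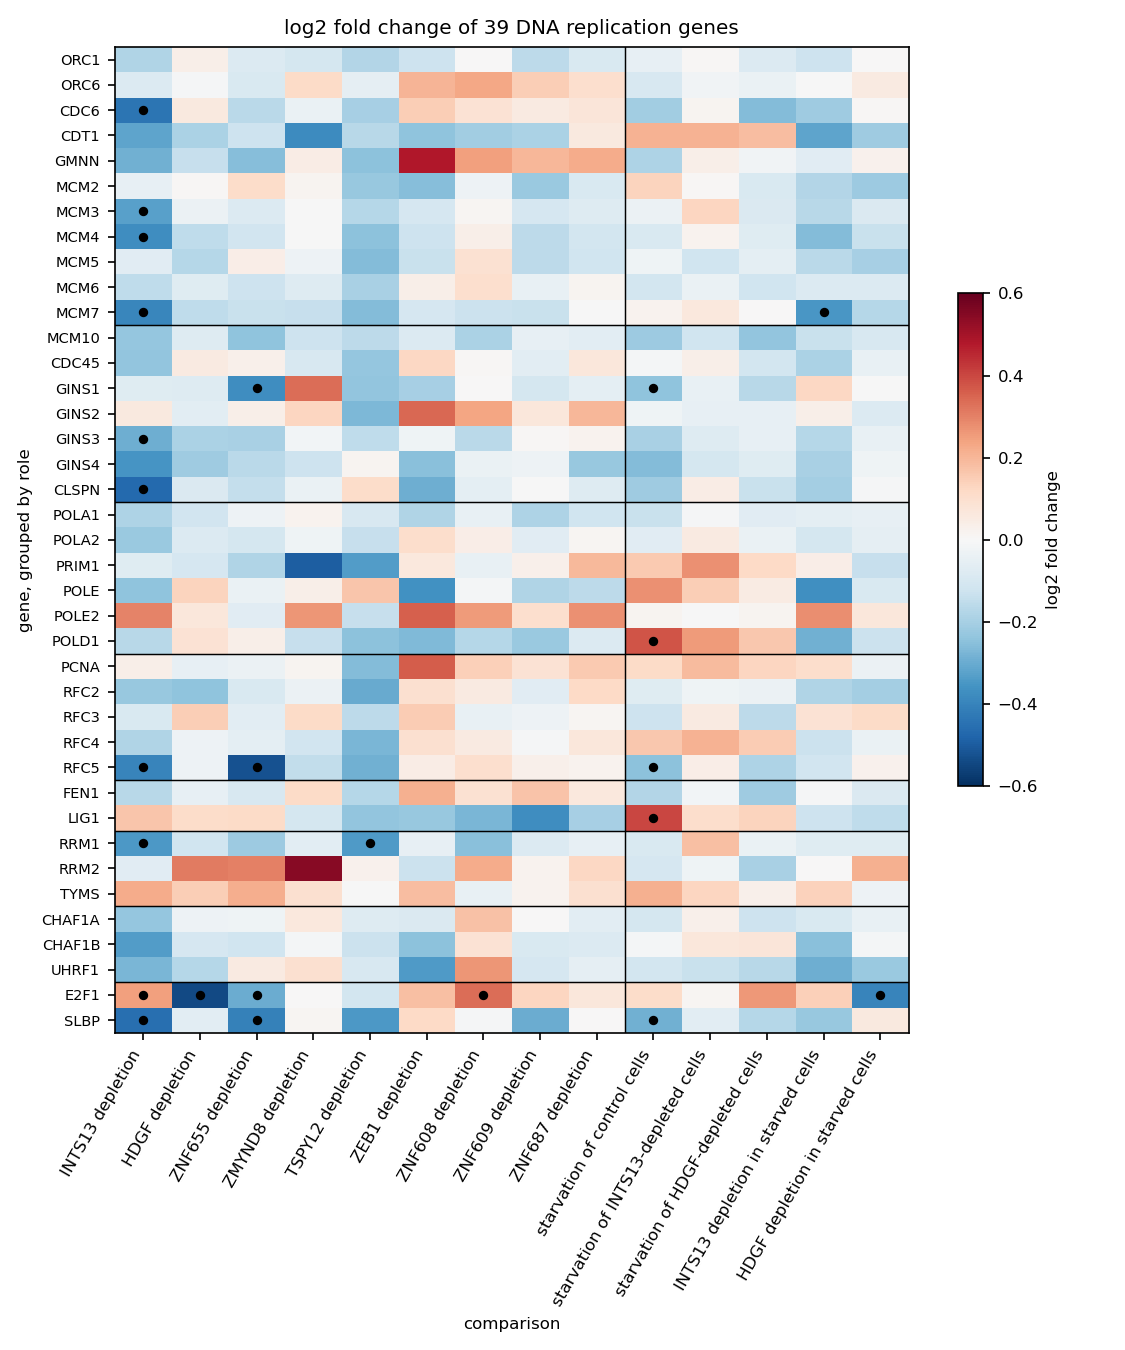
Log2 fold change of the 39 DNA replication genes (rows, ordered by role) in each comparison (columns), on a colour scale centred on 0; marked cells passed the test at an adjusted p under 0.05. The marked cells are most numerous in INTS13 depletion, with 10 of 39 members.

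All 11 genes of origin licensing and its control had negative values after INTS13 depletion, from -0.44 to -0.05, and 4 of them fell. CDC6, the ATPase that recruits the helicase to origins, measured 102 and 107 CPM in the INTS13 libraries and 125, 151, 156 and 137 CPM in the controls (log2 fold change -0.44, SE 0.10, edgeR adjusted p = 0.00483). Every INTS13 library was below every control for CDC6, although control 3a lay under the other three. MCM7, a core subunit of the helicase ring encoded on the minus strand of chromosome 7 (hg38, 100092728 to 100101940), measured 623 and 655 CPM against 803, 873, 849.7 and 829 CPM (log2 fold change -0.39, SE 0.08, edgeR adjusted p = 8.18e-04). MCM4 of the same ring measured 559 and 547 CPM against 696, 722, 726 and 718 CPM (log2 fold change -0.37, SE 0.09, edgeR adjusted p = 0.00737). Both ring subunits were lower in each INTS13 library than in each control by a wide gap. MCM3, which passed the test at -0.33, changed by a similar amount, while MCM2 (-0.05), MCM5 (-0.07) and MCM6 (-0.15) did not pass, so that 3 of the 6 ring subunits fell. CDT1, the loading partner of CDC6, had a value of -0.32 and its inhibitor GMNN -0.29, and neither passed with all libraries in the fit; both did in the second set alone. Without 1 INTS13 library, MCM7 kept an adjusted p of at most 0.0335, and CDC6 and MCM4 reached 0.0863 and 0.0822.

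Among the 7 helicase activation and fork factors, GINS3 and CLSPN fell and 6 had negative values. CLSPN (chromosome 1, 35720218 to 35769978, minus strand) encodes claspin, the adaptor that carries the checkpoint signal from stalled forks, and measured 129 and 142 CPM against 181, 195, 167 and 205 CPM (log2 fold change -0.46, SE 0.15, edgeR adjusted p = 0.0434). Its groups did not overlap, but the controls were spread widely, and the call was lost without INTS13 replicate 3 or 4 or control 3a, 3b or 4b (adjusted p up to 0.298). GINS3, a subunit of the GINS complex, had a value of -0.29 and lost its call without either INTS13 library or control 3b or 4a (adjusted p up to 0.229). GINS4 stood at -0.35 and CDC45 at -0.24 without passing, and GINS2 was the member of this role above 0, at 0.06.

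None of the 6 polymerase and primase genes passed in INTS13 depletion. POLE, the catalytic subunit of polymerase epsilon, had the lowest value (-0.24), and its partner subunit POLE2 the highest of all members (0.30). POLE measured 214 and 213 CPM against 249, 257, 239 and 264 CPM, and POLE2 34.0 and 38.3 against 27.4, 29.9, 34.0 and 26.5 CPM. The groups did not overlap for POLE, and for POLE2 the lower INTS13 library was level with the highest control. Fitted on the second set alone, POLE fell and POLE2 rose, at -0.24 and 0.29.

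Of the clamp and its loader, RFC5 fell and PCNA did not pass, at 0.03. RFC5, a small subunit of replication factor C, measured 96.9 and 95.5 CPM against 121, 129, 139 and 118 CPM (log2 fold change -0.39, SE 0.08, edgeR adjusted p = 0.00164), with a wide gap between the groups. RFC5 was called in all 6 fits that left out 1 library of this comparison (adjusted p at most 0.0317). RFC5 overlaps WSB2 on the opposite strand, whose mean count was 40.0% of its own, and the strand used in counting is not given. RFC2, RFC3 and RFC4 had values of -0.23, -0.09 and -0.18. FEN1 and LIG1, which process and join Okazaki fragments, stood at -0.17 and 0.17 and did not pass.

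RRM1, the subunit that holds the regulatory sites of ribonucleotide reductase, fell, at 317 and 317 CPM against 385, 406, 413 and 404 CPM (log2 fold change -0.34, SE 0.08, edgeR adjusted p = 0.00618). The 2 INTS13 libraries were nearly equal and both lay under every control. RRM2, the small subunit, had a value of -0.07 and TYMS, thymidylate synthase, of 0.22, and neither passed. RRM1 lost its call without either INTS13 library (adjusted p up to 0.0678). Chromatin assembly factor subunits CHAF1A and CHAF1B and UHRF1, which recruits the maintenance DNA methyltransferase, had values of -0.23, -0.33 and -0.27. They passed in the second set alone and not in the fit of all libraries.

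The 2 regulators moved in opposite directions. SLBP, the protein that binds the stem-loop of replication-dependent histone mRNAs, measured 99.8 and 97.5 CPM in the INTS13 libraries and 133, 133, 143 and 133 CPM in the controls (log2 fold change -0.45, SE 0.10, edgeR adjusted p = 0.00339). It fell with a wide gap between the groups, and without INTS13 replicate 4 the adjusted p was 0.0544. E2F1, the transcription factor that drives many members, measured 87.6 and 89.8 CPM against 77.4, 75.6, 73.3 and 73.3 CPM (log2 fold change 0.24, SE 0.08, edgeR adjusted p = 0.0378). E2F1 was thus higher in both INTS13 libraries than in any control, but its call was lost with DESeq2's size factors (adjusted p = 0.0527) and in 5 of 6 fits without 1 library (adjusted p up to 0.296). Of the 21 members with an E2F-type match in their window, 6 passed in INTS13 depletion, where 12.8% of all genes tested did. CDC6, MCM3, MCM7, GINS3 and CLSPN fell and E2F1 rose. Among these 21 members 15 had negative values, with a median of -0.18. Of the 15 with a window and no match, 3 passed (RFC5, RRM1 and SLBP), all of them lower. All 15 had negative values, with a median of -0.23.

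**Figure D4:**
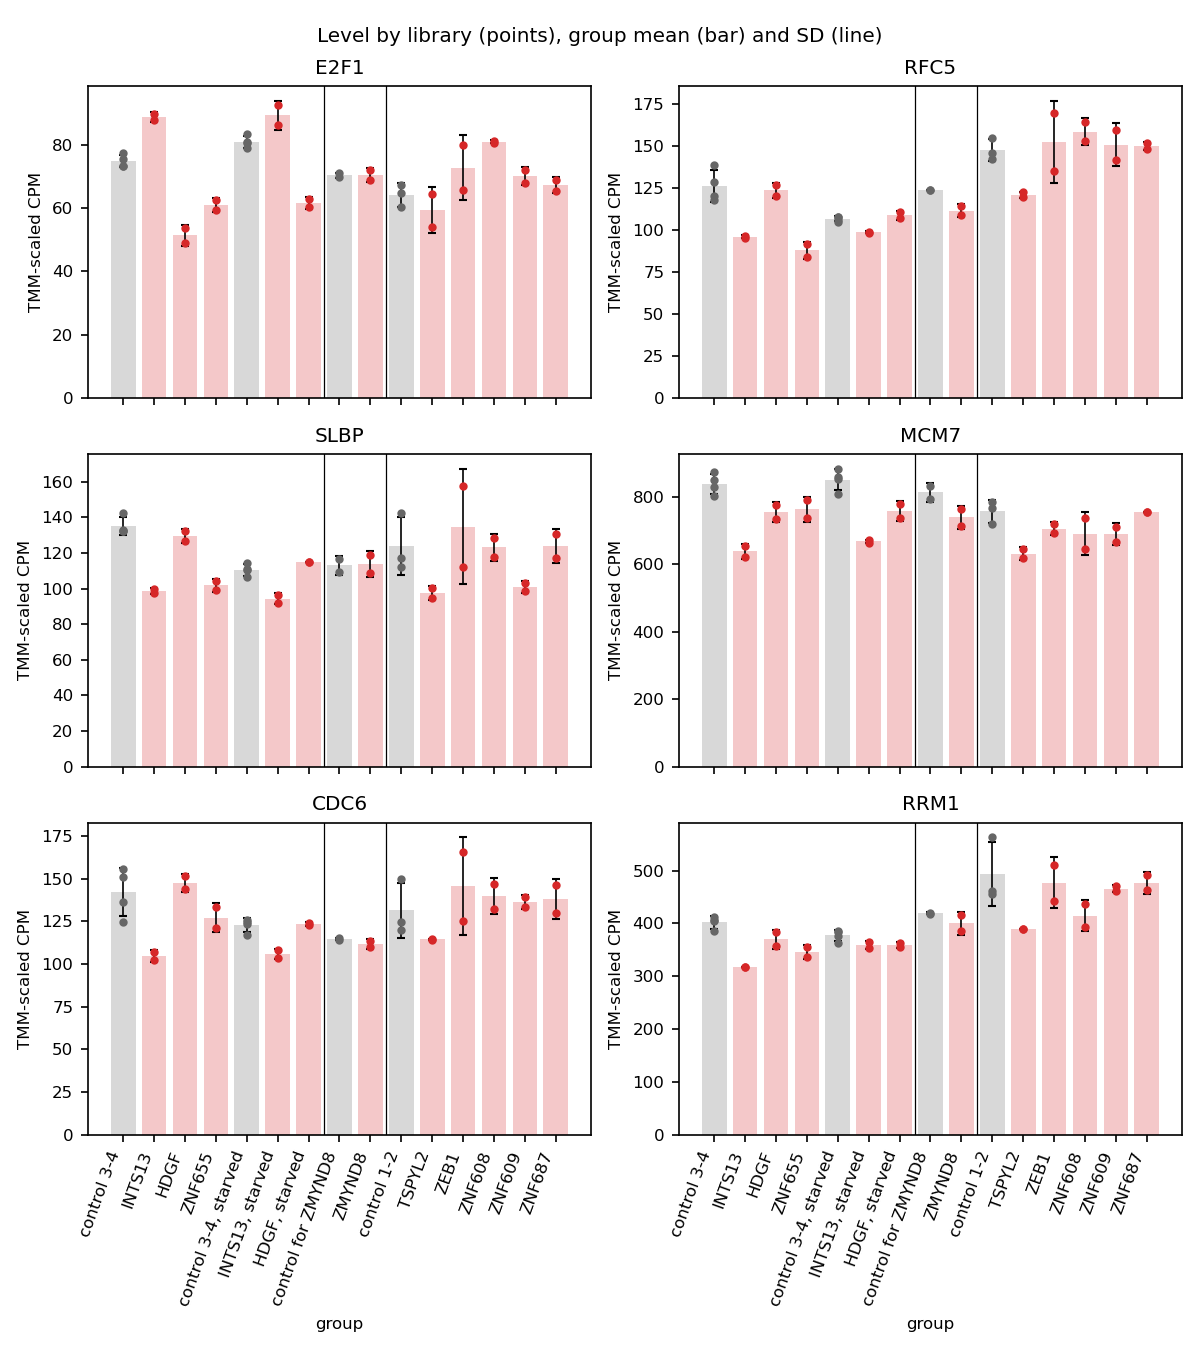
Levels in CPM (y axis) of E2F1, RFC5, SLBP, MCM7, CDC6 and RRM1 in each of the 35 libraries (points), with groups on the x axis. E2F1 is lowest in the HDGF-depleted libraries, at 49.1 and 53.8 CPM, and highest in the INTS13-depleted ones with and without glucose, at 86.1 to 92.5 CPM.

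The other genes of the pathway were read from lists that, like the members, were drawn up with earlier results of these data known. Of 36 further replication machinery genes, 8 fell and none rose after INTS13 depletion, and 29 had negative values (median -0.15). The lowest were DSCC1 (-0.85) and CHTF18 (-0.74), both of the alternative clamp loader that acts in sister chromatid cohesion, RECQL4 (-0.63), a helicase of replication initiation, and WDHD1 (-0.39), which links the helicase to polymerase alpha. Of 13 further genes of deoxynucleotide supply and chromatin assembly, 3 fell and 1 rose. Thymidine kinase TK1 (-0.75) and deoxycytidine kinase DCK (-0.43) were among those that fell, and RRM2B (0.55), the p53-induced reductase subunit, rose. Of 20 genes of G1/S control, CDKN1A (2.60), the inhibitor of cyclin-dependent kinases known as p21, and CCNE1 (0.34), cyclin E, rose, and CDC25A (-0.40) and RBL1 (-0.29) fell. Genes of mitosis moved beside them: all 20 had negative values (median -0.27) and 5 fell, PRC1 (-0.49) most. PRC1 had a low level, at 4.38 and 5.06 CPM in the INTS13 libraries and 5.93 to 7.19 CPM in the controls. The part that any of these genes has in the values of the members was not tested.

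INTS13 depletion was also measured in cells without glucose, against starved controls, with no library shared with the comparison above. MCM7 alone passed with all libraries in the fit (1 of 39 members, where 1.54% of all genes fell and 3.86% passed). It measured 665 and 672 CPM against 883, 854, 811 and 860.1 CPM (log2 fold change -0.35, SE 0.08, edgeR adjusted p = 0.00652), with no overlap. The call was lost without either INTS13 library (adjusted p up to 0.141), with no filter on low counts (adjusted p = 0.138) and with summed a and b control libraries (adjusted p = 0.0709), which left no member called. Values were again mostly negative, in 30 of 39 members (median -0.13, against 0.00 over all genes), and all 11 licensing genes were below 0. In 25 members both depleted libraries lay under all 4 starved controls, as 19.5% of all genes did. A fit of the second set alone had 14 members that fell, among them MCM2 to MCM5, MCM7, CDT1, CDC45 and SLBP, and 1 that rose, POLE2, against 7.99% and 8.34% of all genes.

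Side by side, 34 of 39 members had the same sign in both media, 29 of them negative, and 69.9% of all genes tested had the same sign. MCM7 was at -0.39 with glucose and -0.35 without, whereas RRM1 was at -0.34 and -0.07 and RFC5 at -0.39 and -0.11. Values were closer to 0 without glucose for 31 of 39 members and for 58.7% of all genes. The test of that difference itself, the interaction, called no member (edgeR, 0.0156% of all genes called). RFC5 (0.28) and RRM1 (0.27) were the 2 members with an unadjusted edgeR p under 0.05, with adjusted p of 0.764 and 0.798. Of the 19275 genes tested, 1103 had such an unadjusted p, and DESeq2 called no member. RRM1 passed the interaction in the second set alone, at 0.28, against 1.64% of all genes. Among the other pathway genes, CHTF18 (-0.69), RECQL4 (-0.50), POLD2 (-0.38) and TK1 (-0.64) fell and RRM2B (0.74) and CDKN1A (1.92) rose in starved INTS13-depleted cells, and 15 of 20 mitosis genes had negative values with 1 called.

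**Figure D5:**
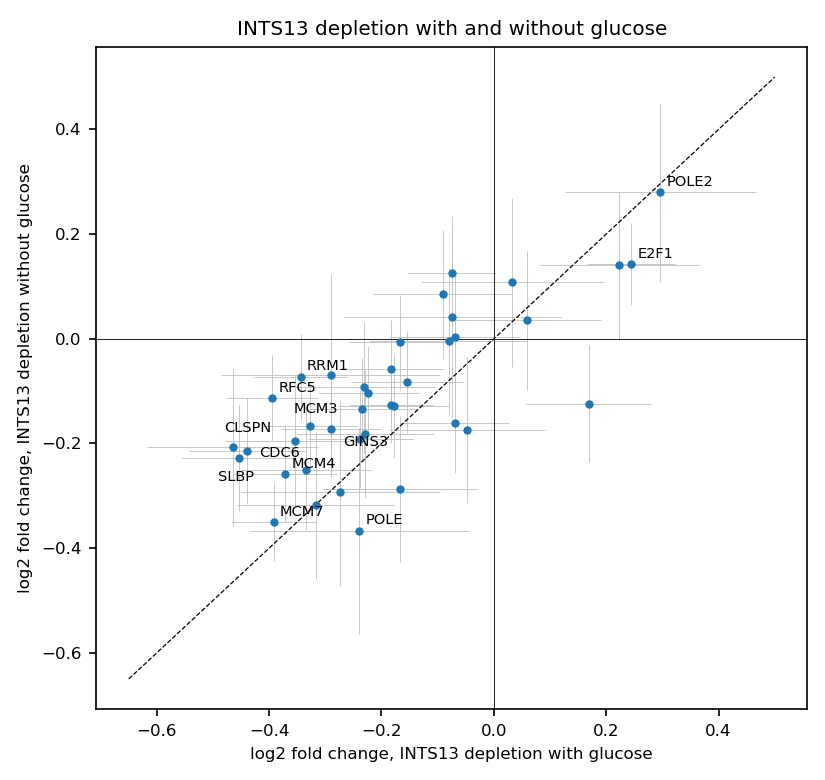
Log2 fold change of the 39 members after INTS13 depletion with glucose (x axis) and without glucose (y axis), with bars of 1 SE and a dashed line of equality. Most points lie in the lower left, 29 of 39 with both values negative, and 31 of 39 are closer to 0 without glucose.

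In HDGF depletion E2F1 was the member that fell (1 of 39, with 2.60% of all genes lower and 4.49% called). E2F1 measured 49.1 and 53.8 CPM against 77.4, 75.6, 73.3 and 73.3 CPM (log2 fold change -0.54, SE 0.08, edgeR adjusted p = 1.10e-04), and every HDGF library lay far under every control. The call held in all 6 fits without 1 library and under every other setting tried (adjusted p at most 0.0162). Without glucose E2F1 fell again, at 60.3 and 62.9 CPM against 80.4, 79.0, 81.0 and 83.3 CPM (log2 fold change -0.39, SE 0.08, edgeR adjusted p = 0.0151), as 1 of 39 members where 0.394% of all genes were lower and 0.659% called. The starved groups did not overlap either, though the call was lost without either HDGF library (adjusted p up to 0.218), with no filter on low counts (adjusted p = 0.186) and with summed a and b control libraries (adjusted p = 0.148). The interaction for E2F1 was 0.15 on the log2 scale and no member passed it (edgeR, no gene of the whole table called, and no member with DESeq2). No member had an unadjusted edgeR p under 0.05, against 909 of the 19275 genes tested. The other 38 members lay between -0.24 (RFC2) and 0.31 (RRM2) with glucose, with a median over all 39 of -0.06. From the second set alone, RRM2 rose and 6 members fell (MCM4, MCM5, GINS3, GINS4, RFC2 and E2F1), against 6.84% and 9.13% of all genes. In the starved cells of that fit RRM2 rose and MCM2, MCM5, RFC2 and E2F1 fell, against 3.64% and 4.18%.

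Beyond the members, RPA1 (0.64), the large subunit of the single-strand binding protein, rose in HDGF depletion as 1 of 36 machinery genes, and DTYMK (-1.10), thymidylate kinase, and ASF1B (-0.33), a histone chaperone, fell as 2 of 13. Of the G1/S genes CCNE1 (-0.54) and RBL2 (-0.34) fell and CDKN1A (0.58) rose, and no mitosis gene passed.

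ZNF655 depletion lowered 4 members, with 4.88% of all genes lower and 11.5% called. RFC5 measured 84.2 and 91.8 CPM against 121, 129, 139 and 118 CPM (log2 fold change -0.52, SE 0.08, edgeR adjusted p = 1.05e-04). GINS1, a GINS subunit, measured 102 and 94.8 CPM against 124, 131, 129 and 125 CPM (log2 fold change -0.37, SE 0.08, edgeR adjusted p = 0.0025). Both groups were clear of the controls. SLBP measured 99.3 and 104 CPM against the 4 control values given above (log2 fold change -0.41, SE 0.10, edgeR adjusted p = 0.00875), and E2F1 59.3 and 62.5 CPM (log2 fold change -0.30, SE 0.08, edgeR adjusted p = 0.0144), and in both each depleted library was under each control. Without ZNF655 replicate 3, SLBP and E2F1 were not called (adjusted p 0.112 and 0.142) and 2 members remained. E2F1 was also lost with no filter on low counts (adjusted p = 0.174) and with the a and b libraries of each control summed (adjusted p = 0.0518). Against the 2 controls labelled for ZMYND8 depletion, tried as an alternative, RFC5 fell by 0.49 (adjusted p = 0.00174) and RRM2 rose, while GINS1 (-0.10, adjusted p = 0.533), SLBP (-0.15, adjusted p = 0.448) and E2F1 (-0.21, adjusted p = 0.158) did not pass. The second set alone gave 10 members that fell and 1, RRM2, that rose, against 16.0% and 13.6% of all genes. CDKN1A (1.88) and RPA1 (0.53) rose and CCNE1 (-0.70), E2F5 (-0.59) and RBL2 (-0.42) fell, and 3 of 20 mitosis genes fell.

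INTS13, HDGF and ZNF655 depletion share the same 4 control libraries, so their values are given side by side only. For E2F1 they were 0.24, -0.54 and -0.30, for RFC5 -0.39, -0.03 and -0.52, and for SLBP -0.45, -0.06 and -0.41. MCM7, called in INTS13 depletion, stood at -0.15 and -0.14 in the other two.

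Glucose starvation of control cells changed 5 members, 2 upward and 3 downward, where 8.77% of all genes rose and 8.05% fell (16.8% in all), so the members' share was below that of all genes. LIG1, the ligase that seals Okazaki fragments, measured 119, 119, 117 and 127 CPM without glucose and 97.1, 89.4, 84.1 and 95.0 CPM with it (log2 fold change 0.40, SE 0.09, edgeR adjusted p = 0.0031). POLD1, the catalytic subunit of polymerase delta, measured 134, 135, 133 and 136 CPM against 119.9, 102, 97.9 and 94.4 CPM (log2 fold change 0.38, SE 0.11, edgeR adjusted p = 0.0206). Both rose without overlap, POLD1 from controls of which 1 stood high. SLBP measured 110.4, 111, 114 and 106 CPM, RFC5 108, 106, 105 and 108 CPM and GINS1 108, 109, 108 and 107 CPM without glucose. All 3 fell, at -0.29, -0.24 and -0.24, with every starved library under every control. Without control 4a of the fed group 2 members remained, LIG1 and GINS1, and the adjusted p of SLBP, RFC5 and POLD1 reached 0.0514, 0.0585 and 0.0696, the last also being lost without control 3b or 4b. With the a and b libraries of each control summed, which leaves 2 samples a group, none of the 5 was called (edgeR adjusted p 0.132 for LIG1 to 0.259 for POLD1), and with no filter on low counts GINS1 (0.118) and RFC5 (0.113) were not. In the second set alone 8 members rose and 12 fell, against 17.0% and 17.7% of all genes.

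By role, all 7 helicase and fork factors had negative values on starvation of control cells, from -0.26 (GINS4) to -0.01 (CDC45), while 4 of 6 polymerase genes were above 0. In the second set alone the members that rose were CDT1, MCM2, PRIM1, POLE, POLD1, RFC4, LIG1 and TYMS, and those that fell included CDC6, GMNN, MCM10, GINS1, GINS3, GINS4, CLSPN and FEN1. Among the further machinery genes 2 rose and 6 fell, with RNASEH2A (-0.86), a subunit of the enzyme that removes ribonucleotides from DNA, lowest and RPA1 (0.31) and TIMELESS (0.27) higher. RNASEH2A was near the floor, at 0.607 to 1.31 CPM without glucose and 1.53 to 2.02 CPM with it. CDC25A (-0.56), CCNE1 (-0.43) and E2F5 (-0.42) fell and CDKN1A (0.78) rose. Of 20 mitosis genes 9 fell, CENPE (-0.81) most, and MYBL2 (0.36) rose.

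Starvation of INTS13-depleted and of HDGF-depleted cells called no member (edgeR, with 1.32% and 3.54% of all genes called). None and 3 members had an unadjusted edgeR p under 0.05, against 2408 and 3083 of the 19275 genes tested, and DESeq2 called no member in either. The members' medians were 0.02 and -0.06. LIG1 stood at 0.11 and 0.14, POLD1 at 0.26 and 0.16, and SLBP at -0.06 and -0.17. None of these passed the interaction test against control cells, which called 0.0156% of all genes for INTS13 and no gene for HDGF. With so few calls, not passing does not show that the values were equal. In the second set alone PRIM1, PCNA, RFC4 and RRM1 rose on starvation of INTS13-depleted cells (7.40% of all genes higher), and E2F1 rose and CDC6, MCM10, FEN1 and RRM2 fell in HDGF-depleted cells (17.0% of all genes called).

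In the first set, TSPYL2 depletion lowered RRM1 (1 of 39 members, 1.08% of all genes lower and 2.22% called). RRM1 measured 389.5 and 389 CPM against 563, 456 and 461 CPM (log2 fold change -0.34, SE 0.09, edgeR adjusted p = 0.0374), with both depleted libraries under all 3 controls, of which the one numbered 1 stood high. Values were negative for 35 of 39 members, including all 11 licensing and all 5 clamp and clamp loader genes (median -0.18, against -0.01 over all genes), and the members summed to 6549 ± 11.2 CPM (SD, n = 2) against 7502 ± 156 CPM (SD, n = 3). In 15 members both depleted libraries lay below all controls, as 12.7% of all genes did. The call rested on single libraries: without TSPYL2 replicate 1 or 2, no member was called, and RRM1 was also lost without the control numbered 1 (adjusted p up to 0.335). With the replicate number as a block, 13 members fell and POLE rose in the fit of all libraries (11.0% and 8.22% of all genes), RRM1 at -0.36 (adjusted p = 0.00136), and none passed in the first set alone (RRM1 -0.34, adjusted p = 0.098). RRM1 was not called with no filter on low counts (adjusted p = 0.201), in the first set alone without the block (adjusted p = 0.712) or with summed a and b libraries (adjusted p = 0.0858). A further fit, chosen after the data were seen, left out the libraries numbered 1 of the first set, so that each depletion of that set was 1 library with no replicate, taken to vary like the replicated groups in the fit. In it the TSPYL2 library had 18 members below the 2 controls at an adjusted p under 0.05, where 9.98% of all genes were, among them POLD1 (-0.56), CDT1 (-0.47), MCM5 (-0.47) and E2F1 (-0.30). That compares 1 library with the controls and does not replicate the depletion.

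ZNF608 depletion raised E2F1 (1 of 39, 1.08% of all genes higher and 2.76% called). E2F1 measured 80.6 and 81.3 CPM against 60.2, 67.4 and 64.7 CPM (log2 fold change 0.34, SE 0.08, edgeR adjusted p = 0.0221), with both depleted libraries above all 3 controls. The call was lost without ZNF608 replicate 1 or 2 or without control 1 or 2b (adjusted p up to 0.16), and also with no filter on low counts (adjusted p = 0.275), in the first set alone without the block (adjusted p = 0.584) and with summed a and b libraries (adjusted p = 0.0947). With the block E2F1 stood at 0.32 both with all libraries (adjusted p = 0.00503; 4 members called, 9.16% of all genes) and in the first set alone, where it did not pass (adjusted p = 0.15, no member called). Without the libraries numbered 1, the single remaining ZNF608 library, again taken to vary like the replicated groups, had E2F1 (0.30), GMNN (0.32) and GINS2 (0.30) above the controls and CDT1 (-0.40) below them at an adjusted p under 0.05, where 9.12% of all genes passed.

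No member passed in ZEB1, ZNF609, ZNF687 or ZMYND8 depletion (edgeR, with 3.77%, 0.571%, 0.254% and 0.747% of all genes called). At an unadjusted edgeR p under 0.05 there were 6, 2, 0 and 4 members, against 4255, 1891, 1751 and 1855 of the 19275 genes tested. DESeq2 called 0, 0, 0 and 2 members, which are not set against all genes here. The ZEB1 count rested on single libraries. Without control 1 of the first set 5 members rose and 9 fell, and the count also moved without ZEB1 replicate 2, which leaves 1 ZEB1 library. The shares of all genes called in these fits are not given here, so the counts are not read as particular to the members. GMNN shows the spread, at 258 and 133 CPM in the ZEB1 libraries and 191, 119 and 111 CPM in the controls, where the library numbered 1 is the higher in each group, in step with the ribosomal protein share. With the block GMNN (0.37) and PCNA (0.26) rose in ZEB1 depletion with all libraries (14.4% of all genes called) and no member passed in the first set alone or in the fit with 1 ZEB1 library numbered 2. In ZNF609 depletion SLBP fell with the block and all libraries (-0.31, 2.40% of all genes called), 1 member passed without control 1, and in the single ZNF609 library numbered 2, on the same assumption, 3 were above and 6 below the controls at an adjusted p under 0.05 (14.2% of all genes passed). ZNF687 depletion had no member called under any of these settings.

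With the last set fitted alone, RRM2 (0.53), GINS1 (0.32) and POLE2 (0.25) rose and PRIM1 (-0.51) and CDT1 (-0.39) fell in ZMYND8 depletion, against 9.42% of all genes. RRM2, the small reductase subunit made in S phase, measured 309 and 326 CPM against 223 and 212 CPM, and PRIM1, the catalytic primase subunit, 39.4 and 35.4 against 52.1 and 53.2 CPM. Neither pair of groups overlapped, but the same held for 21 members and for 50.4% of all genes tested in ZMYND8 depletion. The lack of overlap thus does not set RRM2 and PRIM1 apart from other genes. PRIM1 overlaps the abundant gene NACA on the same strand, and GINS2, RFC3, RFC4, FEN1, TYMS, CHAF1A and CHAF1B also overlap genes with counts above 10% of their own, so their values may hold reads of those neighbours.

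E2F1, which passed in 5 comparisons, was the member called most often, and RFC5 and SLBP passed in 3 each. Within the second set the E2F1 groups ran in the order HDGF (51.5 CPM), ZNF655 (60.9), HDGF without glucose (61.6), control (74.9), control without glucose (80.9), INTS13 (88.7) and INTS13 without glucose (89.3). The ZNF655 and starved HDGF libraries overlapped in this order, as did the INTS13 libraries with and without glucose, and the remaining neighbours did not.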

How the data were processed

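The deposited table held raw read counts per gene, before duplicate removal, in 35 columns that all matched a sample label (0 unmatched). Reads were processed with FastQC, cutadapt and STAR on hg38, per the submitters' processing notes; the counting tool, annotation and strand setting are not given in the sources used here. Libraries were stranded and ribosome-depleted, with 100 bp single-end reads, per the labels' protocols. Genes were filtered with filterByExpr by group (19275 of 60665 kept) and scaled by TMM. One edgeR 4.0.16 quasi-likelihood fit (R 4.3.3) of 15 group means, with 20 residual degrees of freedom, gave 14 two-group contrasts and 2 interactions, with two-sided Benjamini-Hochberg adjusted p-values over all 19275 genes and a threshold of 0.05. SE is the size of the log2 fold change divided by the square root of its F statistic. The script was tested on simulated data.

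Alternatives were DESeq2 1.42.0 (size factors, Wald test), no filter, each set alone, a replicate block, summed a and b libraries, other ZNF655 controls and each library left out. Replicate numbers paired the first set (deviations correlated above 0.1 in 15 of 15 pairs of groups, median r 0.757 over 10244 genes), where the numbers of the descriptions (1, 2a and 2b) were used for the controls, since the titles give others. None of the 27 pairs of libraries within a group agreed within counting noise (lowest chi-square per degree of freedom 3.10). Gene positions are those of the count table, on hg38, and promoter windows are from RefSeq GRCh38.p14.

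The members and all gene lists were chosen with earlier results of these data known. Values by library are given for up to 6 called members with the largest change per comparison and for members called in 3 or more comparisons, and up to 4 called genes are named per pathway list. Some genes of the marker and pathway lists are not reported here by name. Chosen after their values were seen were the members given by library beyond these (RRM1, POLE and POLE2 in INTS13, GMNN in ZEB1, and RRM2 and PRIM1 in ZMYND8 depletion) and those named from fits of 1 set or without the libraries numbered 1. Starved ZMYND8 libraries were not analysed here.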

Additional observations from a re-analysis of the deposited data

Results flagged for a closer look

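In the 2 groups of 4 libraries, 78 member levels were examined for a library far from the other three, and 7 were found, where chance gives about 1 in 20. Among controls with glucose, CDT1 was 130 CPM in library 3a against 106 to 108 CPM in the others, and POLA1 was 183 CPM in 3a against 204 CPM. Library 4b held MCM6 at 318 CPM against 273 to 278 CPM, and TYMS at 77 CPM against 57.7 to 60.7 CPM. SLBP was 143 CPM in library 4a against 133 CPM. Among starved controls, library 3b held ORC1 at 84.1 CPM against 87.9 to 88.2 CPM and GINS4 at 81.7 CPM against 77.7 to 78.3 CPM. In the fit of all libraries SLBP was the one of these genes that passed a test against these controls, and it was lower than the other three controls too in each group called. In the second set alone CDT1, GINS4, ORC1, POLA1 and TYMS also passed at least 1 test against these controls, and MCM6 did not.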

How the results depend on the processing

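Over 152 fits of single called genes without 1 library, 112 calls were kept, and none of the 24 called gene results changed sign under any setting. RFC5 in INTS13 and ZNF655 depletion, MCM7 in INTS13 depletion and E2F1 in HDGF depletion kept their calls under every setting run. Counts of members called moved as follows, and the cause was not tested. No share of all genes is given for DESeq2, no filter, summed libraries, the other ZNF655 controls or fits without 1 library. Those counts show stability alone and are not set against all genes. Without 1 library the count ranged from 3 to 9 for INTS13, 1 to 1 for HDGF, 2 to 4 for ZNF655, 0 to 1 for TSPYL2, 0 to 24 for ZEB1, 0 to 1 for ZNF608, 0 to 1 for ZNF609 and 0 to 0 for ZNF687 and ZMYND8 depletion, from 2 to 7 for starvation of control cells, 0 to 1 for INTS13 and for HDGF depletion in starved cells, and was 0 for the other starvations and both interactions. With no filter, INTS13 gave 6, starvation of control cells 3, ZMYND8 1 and ZEB1 1, and TSPYL2, ZNF608, INTS13 in starved cells and HDGF in starved cells gave 0. DESeq2's Wald test gave 8 for starvation of control cells, 7 for ZNF655, 4 for TSPYL2, and 2 each for ZMYND8, ZNF608 and INTS13 in starved cells. Each set alone gave 27 for INTS13, 20 for starvation of control cells, 15 for INTS13 in starved cells, 11 for ZNF655, 7 for HDGF, 5 each for HDGF in starved cells, starvation of HDGF-depleted cells and ZMYND8, 4 for starvation of INTS13-depleted cells, 1 for the INTS13 interaction, and 0 for TSPYL2 and ZNF608. With summed a and b libraries, INTS13 gave 6, and TSPYL2, ZNF608, starvation of control cells, INTS13 in starved cells and HDGF in starved cells gave 0. ZNF655 against the other controls gave 2. Without the libraries numbered 1 of the first set, a fit chosen after seeing the data that has 1 library per depletion, the counts were 18 for TSPYL2, 4 for ZNF608 and 9 for ZNF609.

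With the replicate block in each set alone, the counts were 27 for INTS13, 19 for starvation of control cells, 15 for INTS13 in starved cells, 11 for ZNF655, 7 for HDGF, 5 each for HDGF in starved cells, starvation of HDGF-depleted cells and ZMYND8, 3 for starvation of INTS13-depleted cells, and 0 for TSPYL2 and ZNF608. With the block over all libraries they were 20 for INTS13, 14 for TSPYL2, 12 for starvation of control cells, 7 for ZNF655, 4 each for HDGF, ZNF608 and INTS13 in starved cells, 3 for ZMYND8, 2 each for ZEB1 and starvation of HDGF-depleted cells, and 1 for ZNF609. Of these block fits, shares of all genes are given above for TSPYL2, ZEB1, ZNF608 and ZNF609 depletion over all libraries. The other block counts are not set against all genes. In the second set the numbers did not pair the libraries (6 of 21 pairs of groups above 0.1, median r 0.00846). ZMYND8 depletion and its controls gave a single pair (r 0.108).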
